A study of Mus musculus with 12 samples.

Results

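Open chromatin was compared between untreated cells of the genotype labelled EF and untreated cells labelled Wt, using the 4 untreated ATAC-seq libraries that shared 1 flowcell (BSF_1013) and 1 lane. The EF libraries were EF replicate 3 (line S_220) and EF replicate 4 (line S_221), and the Wt libraries were Wt replicate 3 (line BM) and Wt replicate 4 (line S_203). Overlapping peaks of all 12 libraries on chromosomes 1 to 19 and X were merged into 153346 regions, of which 104410 were called in at least 1 of the 4 libraries and are the compared regions. A region is gained when both EF libraries and neither Wt library had a peak there, and lost in the reverse case. There were 2935 gained regions, 2.81% of the compared regions, and 7008 lost regions, 6.71%, together 9943. These calls made the groups of regions, so the counts are a description and carry no test, and a gained or lost region is a difference in calling and not a measured change of accessibility.

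All samples were mouse cells with the cell type label MSCLCs, which the labels do not spell out; the series title speaks of bone mesenchymal stem cells and of EWS::FLI1. What EF stands for, the promoter that drives any transgene, and the age and sex of the animals are not given in the labels. The other 8 libraries were left out of the choice of regions and were read at them afterwards. They were EF replicates 1 (S_220) and 2 (S_221) and Wt replicates 1 (WT_1) and 2 (WT_2), all from flowcell BSF_0654, and, from BSF_1013, Wt_IGF1 replicate 1 (BM), EF_IGF1 replicates 1 (S_220) and 2 (S_221), and EF_IGF1_xeno replicate 1 (S_221). The EF-carrying libraries thus came from the same lines S_220 and S_221 in every group, and Wt_IGF1 came from the same line as Wt replicate 3; Wt replicates 1 and 2 alone came from lines outside the compared set. Nothing in the labels says that replicates were separate cultures or animals.

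ATAC-seq uses a transposase that cuts and tags DNA where it is not packed in nucleosomes, so a peak marks a promoter, an enhancer or another open site. EWS::FLI1 is the fusion protein of Ewing sarcoma, a tumour of bone and soft tissue. It joins the ETS DNA-binding domain of FLI1 to EWS, binds repeats of GGAA and opens chromatin there, and it can also repress genes of the mesenchymal programme. Mesenchymal stem cells of bone give rise to bone, cartilage and fat cells, under factors such as RUNX2 and SP7 for bone and EBF1 and PPARG for fat.

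The peak lists of the 4 compared libraries held 52793 (EF replicate 3), 67306 (EF replicate 4), 57297 (Wt replicate 3) and 69662 peaks (Wt replicate 4). List length did not separate the genotypes, since each had 1 shorter and 1 longer list. Read totals were not at hand. The genome background, the number of reads that the peak caller took as chance at any site, rises with depth and was 1.132, 1.339, 0.574 and 1.106 in the same order. It was lowest in Wt replicate 3. Over all 12 libraries the lists ran from 7723 peaks (Wt replicate 1) to 83679 peaks (Wt_IGF1 replicate 1). Wt replicate 1, with the shortest list, had the highest genome background, 2.293.

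The labelled cell type was checked on lists of marker genes. Of the regions nearest to genes of mesenchymal stem cell surface and niche, 34.5% and 46.6% were called in the EF and 40.4% and 50.7% in the Wt libraries, beside 32.9%, 42.4%, 35.3% and 43.7% of all regions in the same order. The mesenchymal list was above the share of all regions in each of the 4, but below it in 7 of the other 8 libraries. The list of smooth muscle and pericyte markers was also above it in all 4, at 35% and 56.1% in EF and 42% and 50.3% in Wt, and in 5 of the other 8, so these lists do not set mesenchymal stem cells apart from those cells. Regions near blood cell markers were called less often than all regions in each of them, at 18.4% and 33.5% in EF and 31% and 35.6% in Wt, but at 61.9% in Wt replicate 2, where 38.4% of all regions were called.

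Some of the members lay in the 250 bases before a gene's start, and the promoters below are shown because their calls also followed the genotype in most of the libraries outside the compared set. They were picked after their values were seen. Windows and strands are RefSeq's on GRCm38.p6. Capitals mark matches, on either strand, to the 6 motifs described further below. The gained ones belong to an internal start of Mad1l1, a protein of the mitotic spindle checkpoint, a start of Isl2, a LIM homeobox factor of motor neurons, and the start of Aqp1, a water channel.
Mad1l1 (chr5:140174919-140175168, minus strand): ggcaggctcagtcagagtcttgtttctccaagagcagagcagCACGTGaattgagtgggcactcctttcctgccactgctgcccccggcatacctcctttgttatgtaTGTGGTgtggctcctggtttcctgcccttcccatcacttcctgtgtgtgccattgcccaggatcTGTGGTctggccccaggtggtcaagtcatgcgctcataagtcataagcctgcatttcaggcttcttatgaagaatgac
Isl2 (chr9:55540899-55541148, plus strand): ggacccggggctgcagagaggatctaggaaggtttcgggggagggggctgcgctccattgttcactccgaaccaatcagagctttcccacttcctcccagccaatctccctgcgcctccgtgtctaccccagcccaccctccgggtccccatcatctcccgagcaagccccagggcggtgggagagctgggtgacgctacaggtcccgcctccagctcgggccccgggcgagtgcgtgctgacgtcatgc
Aqp1 (chr6:55336049-55336298, plus strand): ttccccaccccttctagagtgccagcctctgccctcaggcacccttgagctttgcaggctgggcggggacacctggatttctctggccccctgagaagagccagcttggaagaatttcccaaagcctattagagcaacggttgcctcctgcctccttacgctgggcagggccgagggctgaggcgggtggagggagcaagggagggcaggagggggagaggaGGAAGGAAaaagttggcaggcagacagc
The lost ones belong to Gstk1, a glutathione transferase of mitochondria and peroxisomes, Ccr1, a chemokine receptor of blood cells, and Fgl2, a secreted or membrane-bound protein of the fibrinogen family.
Gstk1 (chr6:42245685-42245934, plus strand): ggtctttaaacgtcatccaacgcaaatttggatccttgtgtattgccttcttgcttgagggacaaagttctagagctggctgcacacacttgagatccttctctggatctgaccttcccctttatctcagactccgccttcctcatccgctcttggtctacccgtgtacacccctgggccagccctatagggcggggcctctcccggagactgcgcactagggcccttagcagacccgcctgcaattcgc
Ccr1 (chr9:123968693-123968942, minus strand): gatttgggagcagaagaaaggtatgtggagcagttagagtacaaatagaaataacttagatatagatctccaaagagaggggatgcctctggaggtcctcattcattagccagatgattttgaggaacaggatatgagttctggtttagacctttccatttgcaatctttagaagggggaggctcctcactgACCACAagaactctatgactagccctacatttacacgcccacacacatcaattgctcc
Fgl2 (chr5:21372423-21372672, plus strand): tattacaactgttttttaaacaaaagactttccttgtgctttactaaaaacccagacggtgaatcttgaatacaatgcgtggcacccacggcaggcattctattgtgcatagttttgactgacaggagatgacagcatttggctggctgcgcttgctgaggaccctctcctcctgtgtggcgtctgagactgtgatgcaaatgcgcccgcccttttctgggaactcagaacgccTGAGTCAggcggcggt
The region over the Mad1l1 window had a fold over local background of 9.67 and 10.7 in EF replicates 3 and 4. Every other EF-carrying library also had a peak there, at 9.06, 13.9, 14.5, 14.6 and 15.7 in EF replicates 1 and 2, EF_IGF1 replicates 1 and 2 and EF_IGF1_xeno, and no Wt-carrying library did. At Isl2 the folds were 9.8 and 12.4 in the compared EF libraries, between 11.7 and 13.7 in the EF_IGF1 and EF_IGF1_xeno libraries and 4.68 in EF replicate 1, while Wt replicate 2 had a weaker peak of 3.28 and Wt_IGF1 one of 4.79. At Aqp1 they were 6.35 and 5.45, and Wt_IGF1 also had a peak, of 4.01. At Gstk1 all 5 Wt-carrying libraries had a peak (12.8 and 11.5 in Wt replicates 3 and 4, 6.70 and 15.4 in Wt replicates 1 and 2, 14.1 in Wt_IGF1) and no EF-carrying library did. Ccr1 (12.1, 13.8, 16.2 and 16.0 in Wt replicates 3, 4 and 2 and Wt_IGF1) and Fgl2 (10.4, 13.1, 14.0 and 14.7) lacked a peak in Wt replicate 1, the library with the shortest list, and in all EF-carrying libraries. All fold values are the authors' own for each peak.

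The first question was whether libraries that played no part in choosing the regions had the same calls. EF replicate 1, from the other flowcell, called 63.9% of the gained regions (exact 95% interval 62.1 to 65.6) and 9.86% of the lost ones (9.17 to 10.6). EF replicate 2 called 13.6% and 1.80%, EF_IGF1 replicate 1 called 54.8% and, of the lost ones, 703 of 7008, EF_IGF1 replicate 2 called 55.2% and 21.7%, and EF_IGF1_xeno called 36.9% and 5.02%. All 5 EF-carrying libraries called a larger share of the gained than of the lost regions. Of all compared regions they called 43.2%, 24.1%, 46.5%, 51.4% and 36.3% in the same order. The gained share was thus below that of all compared regions in EF replicate 2 and near it in EF_IGF1_xeno. Wt_IGF1 went the other way, with 36.1% of gained and 93.4% of lost regions, beside 65.6% of all compared regions. Wt replicate 1, which called 6.74% of all compared regions, called 0.477% (0.261 to 0.799) and 1.40% (1.14 to 1.7). Wt replicate 2 called 21.2% and 21.5%, beside 32.4% of all compared regions. Neither of the Wt lines outside the compared set thus favoured the lost regions by as much as 1 percentage point. In Wt replicate 1 few regions of either group were called, 14 gained and 98 lost ones, and the lost share was higher. The intervals cover counting error only, and regions of 1 library are not replicates, so they do not test this.

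The share of gained minus the share of lost regions called was 35.2 ± 15.9 percentage points in the EF-carrying libraries (SD, n = 5) and -19.5 ± 32.7 in the Wt-carrying libraries (SD, n = 3). The difference of 54.7 points had a two-sided exact permutation p of 0.0357, the smallest that the 56 orders of these 8 labels can give. Every EF-carrying library was above every Wt-carrying one. These libraries are not independent, since the 5 EF-carrying ones come from the 2 lines that chose the regions and Wt_IGF1 from the line of Wt replicate 3. With 1 value per line the means were 49.4 (S_220) and 25.7 (S_221) against -57.2 (BM), -0.921 (WT_1) and -0.374 (WT_2), a difference of 57.1 points with an exact permutation p of 0.2, the smallest that 10 label orders can give. The negative mean of the Wt-carrying libraries came largely from Wt_IGF1, at -57.2 points, against -0.921 and -0.374 in Wt replicates 1 and 2. Without Wt_IGF1 the difference between EF-carrying and Wt-carrying libraries was 35.8. It was 20.4 points (exact permutation p = 0.536) when EF replicate 4 was left out of the comparison that chooses the regions and 45 (exact permutation p = 0.0714) when EF replicate 3 was. Within flowcell BSF_0654, 2 libraries against 2, it was 33.6, where no exact permutation p can be under 0.333, and within BSF_1013, 3 against 1, it was 94.0, where none can be under 0.5.

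**Figure D1:**
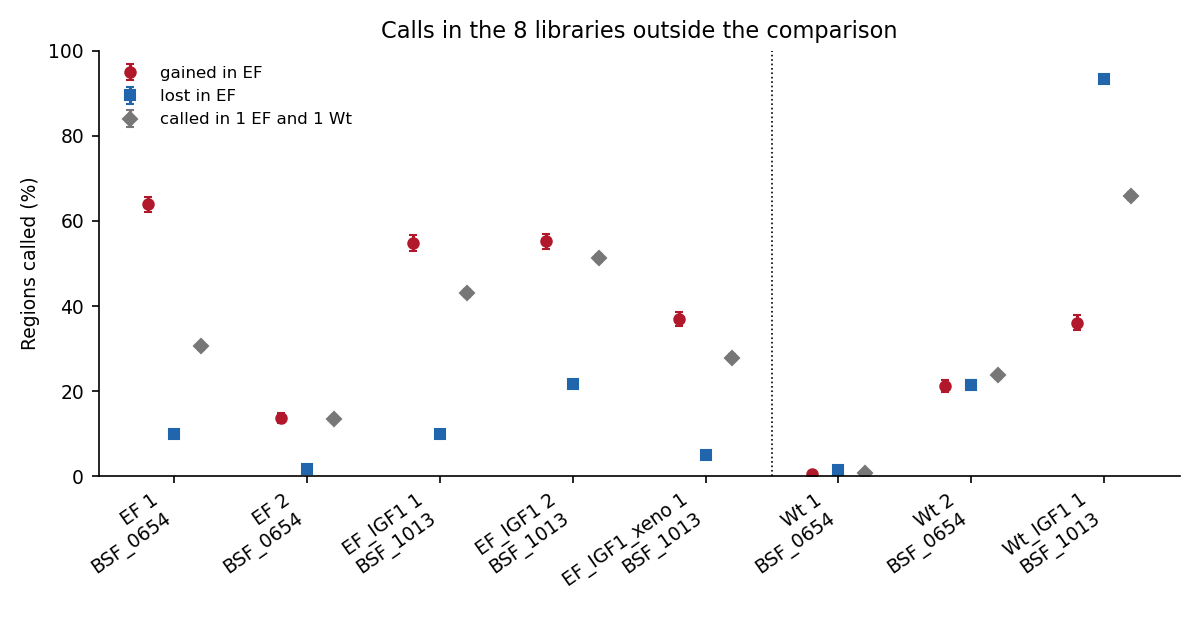
Share of regions called (y axis, percent) in each of the 8 libraries outside the comparison (x axis, with flowcell), for regions gained in EF (circles), lost in EF (squares) and called in 1 EF and 1 Wt library (diamonds); bars are exact 95% intervals, which cover counting error only. Circles lie above squares in all 5 EF-carrying libraries left of the dotted line, the markers of Wt replicate 2 lie close together at 21.2% to 23.7%, and Wt_IGF1 called 93.4% of the lost regions.

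Regions called in 1 EF and 1 Wt library, the mixed regions, give a reference of the same number of calls, but not a matched one. There were 10218 of them, 7118 called in EF replicate 4 and 7308 in Wt replicate 4, the longer lists. Each has 1 call from line S_220 or S_221, the lines of all held-out EF-carrying libraries, and a lost region has none. EF replicate 1 called 30.5% of the mixed regions against 63.9% of the gained regions, a ratio of 2.10. In the other EF-carrying libraries the ratio of gained to mixed was smaller, between 1.02 (EF replicate 2) and 1.32 (EF_IGF1_xeno). The share of lost regions was lower than that of the mixed ones in each of them, with ratios of 0.134 to 0.423. By ratio the lost regions stood further from the mixed ones in these libraries than the gained regions did, EF replicate 1 included (0.324). How far the choice of regions makes this difference was not tested. Wt replicate 2 was near 1 for both, at 0.894 for the gained and 0.910 for the lost regions. The other Wt-carrying libraries were below 1 for the gained and above 1 for the lost regions. The ratios were 0.633 and 1.86 in Wt replicate 1, where few regions were called, and 0.548 and 1.42 in Wt_IGF1.

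The 4 libraries of the other flowcell were also put through the same rule. Of the gained regions 257 (8.76%) were gained there too and 2 were lost, beside 5.98% gained and 0.356% lost there among all compared regions. Of the lost regions 87 (1.24%) were lost there and 28 were gained. A lost region needs both Wt libraries, and the list of Wt replicate 1 held 7723 peaks. With the weaker demand of any EF and no Wt library, 52.2% of the gained regions, 8.85% of the lost and 25.1% of all compared regions qualified. With any Wt and no EF library it was 6.95%, 19.2% and 9.64%.

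A stricter group of members was called in every library of its genotype and in none of the other, leaving aside Wt replicate 1. It held 84 gained regions, 0.0805% of the compared regions, and 955 lost regions, 0.915%. The demand differs between the directions, since a gained region had to be called in 5 further libraries and a lost one in 2. The gained regions without a call in any of the 3 held-out Wt-carrying libraries were 1529 (52.1%), and the lost regions without a call in any of the 5 EF-carrying ones were 4746 (67.7%). Of the mixed regions 27.5% had no call in those 3 libraries and 23.5% none in those 5.

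Members had weaker peaks than regions shared by all 4 libraries. The median fold of gained regions was 6.14 in EF replicate 3 and 6.41 in EF replicate 4, and that of lost regions was 6.99 in Wt replicate 3 and 7.85 in Wt replicate 4. In the 26598 regions called in all 4 libraries the medians were 8.63, 9.62, 8.30 and 10.2 in the same order. The weaker of a member's 2 peaks had a median -log10 q of 7.49 in gained and 7.94 in lost regions. It was 5 or more in 85.2% and 87.8%, and 20 or more in 5.18% and 6.69%. Just outside the rule lay 5682 regions called in both EF and 1 Wt library and 10399 called in both Wt and 1 EF library, each more than the members of its direction.

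The 8 strongest gained members with the strict pattern lay more than 10 kb from any gene end. Among them, a region at chr1:114039195-114040364, with no protein-coding gene within 100 kb, had folds of 14.6 and 15.4 in EF replicates 3 and 4 and of 15.4, 9.26, 18.9, 16.6 and 19.4 in EF replicates 1 and 2, EF_IGF1 replicates 1 and 2 and EF_IGF1_xeno. A region inside Cdcp3 (chr7:131187035-131187929) had 18 and 15.7, and between 9.68 and 18.8 in the others. A region 27028 bp from Vdac1, the main channel of the outer mitochondrial membrane, had 12.5 and 11.3, and between 10.5 and 14.8. EF replicate 2, with the shortest list among the EF-carrying libraries, had the lowest fold of the 7 in these 3 regions.

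Further gained regions of this kind lay inside Adgrl3, an adhesion receptor of the latrophilin group (13 and 13.9 in the compared EF libraries), 52916 bp from Sgk1, a kinase downstream of PI3K (9.43 and 7.46), 75146 bp from Zfp36l1, a protein that directs decay of AU-rich mRNAs (13.8 and 16.4), 16534 bp from Ddx47, an RNA helicase (11.7 and 10.1), and at chr5:126537769-126538747 with no gene within 100 kb (10.3 and 11.0). None of these 8 regions had a peak in any of the 5 Wt-carrying libraries, as the rule of their choice demands of all but Wt replicate 1.

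Among the lost regions with the strict pattern, the one 35 bp from Tppp3, a tubulin-binding protein (chr8:105471104-105471813), had folds of 12.6 and 13.1 in Wt replicates 3 and 4, 10.8 in Wt replicate 2, 13 in Wt_IGF1 and 6.80 in Wt replicate 1. It was called in all 5 Wt-carrying libraries. A region inside Tiam1, an activator of RAC (chr16:89980271-89980892), had 17.3 and 16.2, 14.4 in Wt replicate 2 and 18.3 in Wt_IGF1. A region 7179 bp from Tnfrsf14, a receptor of the TNF family, had 14.2 and 15.2, 12.8, 14.8 and 5.10 in Wt replicate 1. The others lay inside Rgcc (14.2 and 14.7), inside Nfrkb (14.7 and 13.1), 80756 bp from Tmem215 (16.5 and 18.4), and at chr3:118070086-118070716 (17.3 and 19.2) and chr3:50737000-50737687 (15.0 and 17.6), both with no gene within 100 kb.

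**Figure D2:**
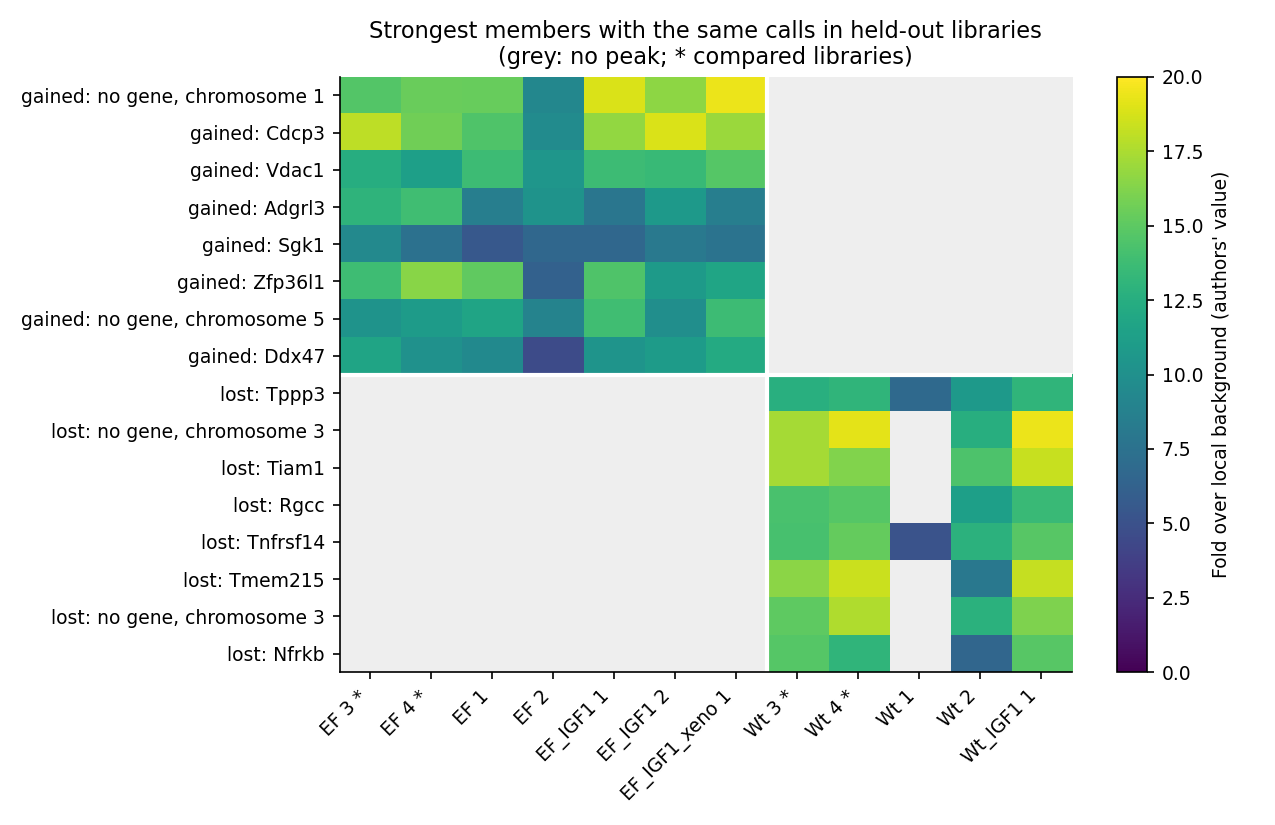
Fold over local background (colour, the authors' value per peak, 0 to 20) of the 8 strongest gained and 8 strongest lost regions with the strict pattern (rows, named by the nearest gene) in the 12 libraries (columns); grey marks no peak. Calls were used to choose these rows, except those of Wt replicate 1, which had a peak near Tppp3 and near Tnfrsf14.

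By peak strength alone, several leading members were not silent in the Wt-carrying libraries outside the comparison. The gained region with the highest weaker -log10 p lay inside Ppard, a nuclear receptor of fatty acid metabolism, with folds of 9.57 and 8.78 in EF replicates 3 and 4. It also had peaks of 5.06, 8.38 and 3.96 in Wt replicates 1 and 2 and Wt_IGF1. The gained region 21153 bp from Lrrk2 had 16.7 and 19.9, and 11.3 in Wt replicate 2 and 10.8 in Wt_IGF1. Regions 53073 bp from Slc17a6 (17.9 and 19.3) and 73882 bp from Mkln1 (14.8 and 15.4) had peaks of 12.1 and 5.07 in Wt_IGF1. The region at chr10:66186996-66187531 (19.8 and 20.7) had no Wt-carrying peak, but none in EF replicate 2 or EF_IGF1_xeno either.

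Leading lost regions were mostly called in Wt_IGF1 and in no other library outside the comparison. That was so inside Rnf150 (19 and 17.6 in Wt replicates 3 and 4, 16.7 in Wt_IGF1), inside Auts2 (17.4, 19.8 and 17.6), inside Apba1 (14.2, 12.1 and 10.7), 23300 bp from Ino80c (15.8, 13.5 and 15.4) and at chr2:159755234-159756105 (15.0, 18.3 and 16.2). The region inside Zfp148 (21.1 and 19.2) also had a peak of 6.48 in EF_IGF1 replicate 2, and the one inside Ccdc146 (17.1 and 22.2) had peaks of 4.79 and 10.9 in EF replicates 1 and 2. Wt replicate 2 had a peak at none of these 7 lost regions.

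Gained regions were most frequent on the X chromosome, at 108 of 2355 compared regions (4.59%), beside 2.81% over all chromosomes; the autosomes ran from 1.97% (chromosome 2) to 3.8% (chromosome 15). Lost regions made up 6.62% of X, near the overall 6.71%, and ran from 5.05% (chromosome 11) to 8.26% (chromosome 13). With the clusters at Firre and Pls3 described next left out, 86 gained regions remained on X, 3.65% of its compared regions, which is below chromosome 15.

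**Figure D3:**
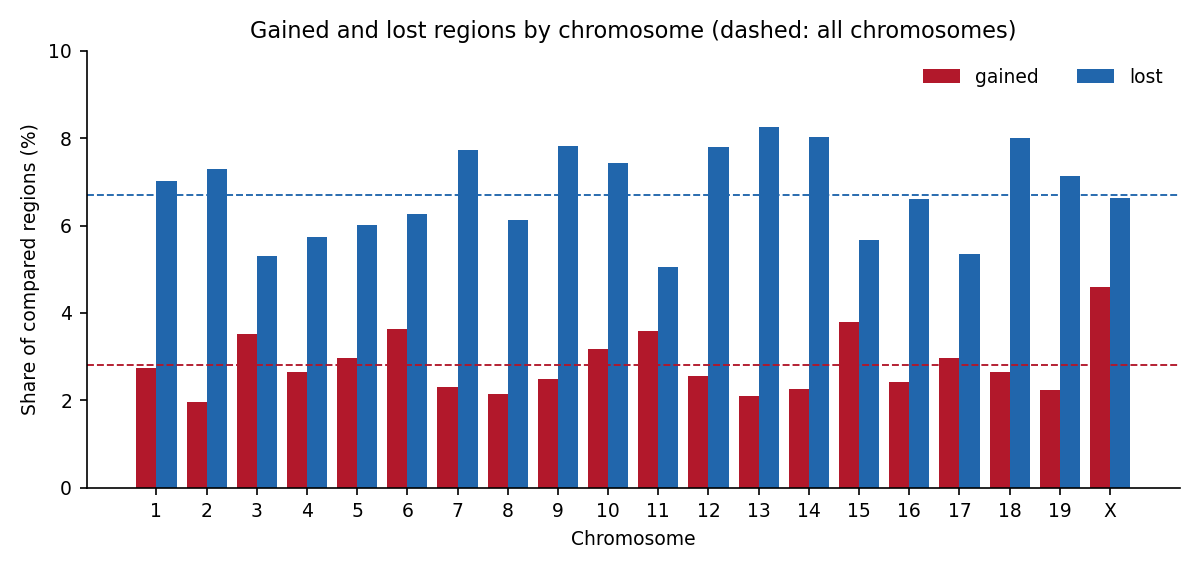
Share of compared regions (y axis, percent) that were gained (red) or lost (blue) on each chromosome (x axis); dashed lines give the shares over all chromosomes, 2.81% and 6.71%. X has the highest gained share, 4.59%, and chromosome 13 the highest lost share, 8.26%.

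The densest cluster of gained regions lay over Firre. This gene makes a long noncoding RNA from an array of repeats bound by CTCF, and together with 4933407K13Rik, which RefSeq lists with the synonym Dxz4, it is known as one of the open CTCF-bound repeat arrays of the inactive X chromosome; Xist makes the RNA that silences that chromosome. At chrX:50549750-50658502, 17 of 18 compared regions were gained, 14 of them among the 15 inside Firre itself. At 4933407K13Rik 5 of 7 were gained, which are 5 of the 6 gained regions assigned to the neighbouring Pls3, a bundler of actin. At Xist both compared regions were gained.

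Peaks within Firre numbered 16 in each of EF replicates 3 and 4 and 1 in each of Wt replicates 3 and 4. In the libraries outside the comparison there were 18 in EF replicate 1 and 17 in Wt replicate 2, but 1 each in EF replicate 2, both EF_IGF1 libraries, EF_IGF1_xeno and Wt_IGF1, and 0 in Wt replicate 1. The pattern thus followed neither the genotype nor the line: S_220 had 18 and 16 peaks without and 1 with IGF1, and S_221 had 16 in one untreated library and 1 in the other. Peaks at 4933407K13Rik split the libraries into the same high and low ones, with 7 and 6 in the compared EF libraries, 5 in EF replicate 1, 6 in Wt replicate 2 and at most 1 in the others.

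Peaks at 7 genes of the Y chromosome (Zfy1, Uba1y, Kdm5d, Eif2s3y, Uty, Ddx3y and Usp9y) were listed in 3 libraries only, with 3 in Wt replicate 3, 9 in Wt replicate 4 and 5 in Wt_IGF1. The other 9 libraries, all EF-carrying ones included, listed none. Peaks anywhere on Y did not separate the genotypes: there were 2 and 8 in EF replicates 3 and 4, 5 and 13 in Wt replicates 3 and 4, and 1 to 9 in the other libraries. In the 4 compared libraries the EF genotype thus went with many peaks at Firre and none at the 7 Y genes, and the Wt genotype with 1 peak at Firre and some at those genes, so genotype and this difference cannot be told apart there. The sex chromosomes held few of the members. On the autosomes alone there were 2827 gained and 6852 lost regions, and the difference in held-out calls was 55.0 points (exact permutation p = 0.0357). Leaving out X changes the regions and not the libraries, so these values cannot separate genotype from the difference at Firre and the Y genes. Among the held-out libraries only Wt_IGF1, from which the negative Wt-carrying mean largely came, had peaks at the 7 Y genes.

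**Figure D4:**
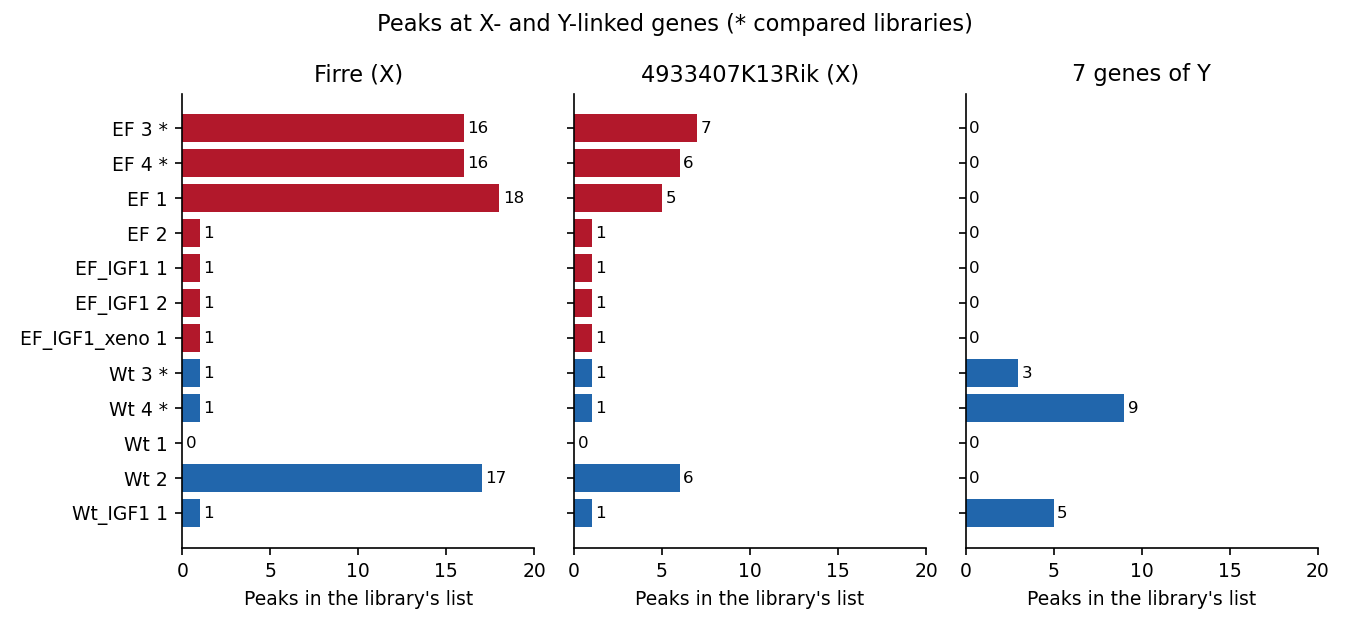
Number of peaks (x axis) within Firre, within 4933407K13Rik and at 7 Y genes in each of the 12 libraries (rows; EF-carrying red, Wt-carrying blue; asterisks mark the compared libraries). High Firre counts of 16 to 18 occur in EF replicates 1, 3 and 4 and in Wt replicate 2, and peaks at the 7 Y genes in Wt replicates 3 and 4 and Wt_IGF1.

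Members were distal more often than compared regions in general. At most 1 kb from a protein-coding gene's end lay 172 gained regions (5.86%) and 387 lost ones (5.52%), beside 13.2% of all compared regions, 7.10% of the regions called in 1 EF and 1 Wt library and 32.0% of those called in all 4. The low share thus went with being called in some libraries only. For the gained regions it rested on how calls were made: it was 40.0% with the 20000 strongest peaks of each library, where all compared regions had 24.0%, 11.0% when peaks had to cover 50% of a region, where all had 13.3%, and 15.1% without Wt replicate 4, where all had 13.9%. The lost share stayed between 4.86% and 6.70% under the same choices of peaks and libraries. Regions with no gene within 100 kb made up 11.9% of gained, 14.4% of lost and 10.9% of all compared regions, and 48.6%, 50.6% and 51.9% lay inside a gene.

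Chains held a larger part of the lost regions than of the gained ones. Chains of at least 4 members of 1 direction, with gaps under 50 kb between them, held 84 gained regions (2.86%) in 16 chains and 731 lost regions (10.4%) in 151. More lost than gained members exist, so chains of lost ones arise more easily. The next member along the chromosome was lost for 75.8% of lost regions, where lost regions are 70.5% of members. It was gained for 42.2% of gained ones, where gained regions are 29.5%. Gained and lost regions were thus each followed by their own direction more often than its share of members. Switches from gained to lost and back alternate along a chromosome, so they are about equally many. The direction with fewer members must then show the larger excess, so the sizes of the excess cannot compare gained with lost regions.

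The longest lost chain held 11 of 16 compared regions at Tspan18, a tetraspanin (chr2:93226791-93361155). Wt_IGF1, which called 93.4% of all lost regions, called all 11. Wt replicate 2 called 3, EF_IGF1 replicate 2 called 4 and the other EF-carrying libraries none. Chains of 10 lay at Cacna1c, the pore subunit of an L-type calcium channel (10 of 22 compared), and at Ibtk (10 of 13), where Wt_IGF1 called 9 and 10 and EF replicate 1 called 1 in each. A chain of 8 of 16 crossed the Ms4a cluster of chromosome 19, genes of the CD20 family of membrane proteins, many of them made in blood cells. Wt_IGF1 called all 8 of these, Wt replicate 2 called 4 and EF_IGF1 replicate 2 called 2. Of 125 compared regions nearest to blood cell markers 1 (0.8%) was gained and 13 (10.4%) were lost, beside 2.81% and 6.71% of all compared regions, and the part of such cells in these calls was not tested.

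Outside X, the gained chains were shorter. The largest held 6 of 20 compared regions at Bcar3, an adaptor of p130Cas at cell adhesions (chr3:122378597-122516072), of which EF replicate 1 called 5, EF replicate 2 called 2, the EF_IGF1 and EF_IGF1_xeno libraries 3 each, and Wt replicate 2 and Wt_IGF1 1 each. At Sybu, a kinesin adaptor, EF replicate 1, both EF_IGF1 libraries and EF_IGF1_xeno each called all 4 gained regions, but Wt_IGF1 called 3 of them. At Cobl, an actin nucleator, 4 of 12 regions were gained in a chain; EF replicate 1 and EF_IGF1 replicate 1 called all 4, Wt_IGF1 1 and Wt replicate 2 none. A chain from Hoxb9 to Hoxb4 held 4 of 11 regions, all called in both EF_IGF1 libraries, 3 in EF_IGF1_xeno, and 1 in each of EF replicate 1, Wt replicate 2 and Wt_IGF1.

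Gained regions had 2106 nearest genes and lost regions 3761, of 16852 genes near a compared region, and 751 genes had both. Negr1, a cell adhesion molecule of neurons, had the most gained regions, 7 of 25, with none lost. EF replicate 1 called all 7, EF_IGF1 replicate 1 called 6, and EF replicate 2, EF_IGF1_xeno, Wt replicate 2 and Wt_IGF1 1 each. Pde4b, a phosphodiesterase that degrades cAMP, had 6 of 42 gained and 2 lost, but Wt_IGF1 called 5 of the 6. Trabd2b, a protease that inactivates WNT proteins, had 6 of 51 gained and 3 lost. Adgrl3 (5 of 21), Dip2a (4 of 9), Sntg2 (4 of 8), Cyrib (4 of 15) and Pim1, a survival kinase (4 of 16), followed. At Pim1 EF replicate 1 called none of the 4 and Wt replicate 2 called 2.

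Among lost regions Lrmda led with 15 of 73, of which Wt_IGF1 called 14 and the 5 EF-carrying libraries together 1. Wt_IGF1 called 93.4% of all lost regions. The transcription factors Foxp1 (11 of 69), Glis3 (10 of 56) and Ebf1 (9 of 45), and Ccbe1, a matrix protein of lymphatic growth (12 of 40), had many lost regions and at most 2 gained ones. Sntb1, a syntrophin of the dystrophin complex, lost the highest share among the 12 genes, 9 of 14, and all 9 were called in Wt_IGF1 and 3 in Wt replicate 2. Gabrg3, a GABA receptor subunit (11 of 23), Galnt18 (10 of 27), Kif26b (9 of 27) and Macrod2 (10 of 55) completed the list.

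At Ebf1, a factor of fat cell and B cell fate, the 9 lost regions were called 8 times in Wt_IGF1, never in Wt replicates 1 and 2, and 1 or 2 times in each EF-carrying library. It was the leading gene of the fat cell list, of whose 215 compared regions 25 (11.6%) were lost and 5 (2.33%) gained, beside 6.71% and 2.81% of all compared regions. Zfp423, a factor of fat cell commitment, had 3 lost regions and Cebpb, an early factor of fat cell formation, 2. The gained ones included 1 near each of Cidec, a protein of fat droplets, Ebf2 and Klf5, and of the 5 gained regions each EF_IGF1 library and EF_IGF1_xeno called all 5. With the 20000 strongest peaks of each library the list had 7 lost regions, where all lost regions fell from 7008 to 2465.

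Bone genes had the opposite balance. Of the 237 compared regions of the bone cell list 9 (3.8%) were gained and 4 (1.69%) lost, with 2 gained at each of Dlx6, a homeobox factor of bone development, and Mepe, a bone matrix protein. Runx2 had neither a gained nor a lost region among 47, Col1a1 none among 11, and Sp7 1 gained among 5, which EF replicate 1, both EF_IGF1 libraries and EF_IGF1_xeno also called. Wt_IGF1 called 3 of the 9 gained regions of the list and Wt replicate 2 none. The balance depended on the choice of peaks and libraries: the bone list had 6 gained and 7 lost regions with the 20000 strongest peaks, 13 and 22 without Wt replicate 3, 22 and 19 without Wt replicate 4, 47 and 11 without EF replicate 3 and 35 and 20 without EF replicate 4. The totals moved too, to 1632 gained and 2465 lost regions with the strongest peaks. With a compared library left out they were 3804 to 17863 gained and 9707 to 17836 lost. Over all 29 lists, leaving out a compared library moved 190 of 232 counts up by more than 1.5 times and none down. Of the cartilage list 3 (1.84%) of 163 were gained and 15 (9.20%) lost, 4 of the lost near Sox5.

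Of 49 regions at the posterior HOX genes, which specify the hind part of the body axis, 5 (10.2%) were gained and none lost. They lay at Hoxb9 (3 of 7), Hoxb13 (1 of 1) and Hoxc13 (1 of 11). Both EF_IGF1 libraries called all 5, EF_IGF1_xeno 4, EF replicate 1 called 2 and Wt_IGF1 1. The region at chr15:102890892-102891246, 30066 bp from Hoxc13, was called in all 5 held-out EF-carrying and no Wt-carrying library. With the 20000 strongest peaks of each library the list had 0 gained regions, where all gained regions fell from 2935 to 1632. The bias of the bone, HOX and matrix lists was known from an earlier look at these libraries and is no independent evidence.

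Genes that EWS::FLI1 is known to regulate in human Ewing sarcoma had 3 (1.01%) gained and 23 (7.77%) lost of 296 regions, beside 2.81% and 6.71% of all compared regions; the lost share was near the overall one. Ccnd1, a cyclin, had 2 gained and 1 lost of 16 regions and Mef2c 1 gained and 1 lost of 18; Tnc, a matrix protein, had 6 lost of 25. Nkx2-2, a homeobox factor, had 1 of 2 lost and none gained. ETS factor genes had 4 (1.84%) gained and 19 (8.76%) lost of 217, with 3 lost at Ets1.

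Targets of YAP and TEAD, the effectors of the Hippo pathway, had 17 (3.72%) gained and 38 (8.32%) lost of 457 regions, both somewhat above the 2.81% and 6.71% of all compared regions. The gained ones were spread over 15 genes, with 2 each at Crim1 and Gadd45b, and the lost ones included 7 of 57 at Rbms3. Yap1 itself had 3 lost and no gained among 14, all 3 called in Wt_IGF1, which called 93.4% of all lost regions, and in no other held-out library. The Hippo core list had 10 (3.46%) gained, 2 of them inside Wwtr1, which makes TAZ, and 20 (6.92%) lost, 3 of them at Tead1; both shares were near the overall ones.

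In the IGF pathway 11 (2.86%) of 384 regions were gained and 30 (7.81%) lost, both close to the shares of all compared regions. Igf1, the ligand, had 3 lost of 20 and Igf1r, its receptor, 1 gained and 2 lost of 34. The RNA-binding protein gene Igf2bp1 had 2 gained of 6, and the region inside it at chr11:95981085-95981580 was called in all 5 held-out EF-carrying libraries and no Wt-carrying one. Pik3cb, a catalytic PI3K subunit, had 3 gained, and Irs2 and Pik3r1, which carry the signal from receptor to PI3K, 4 lost each.

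Genes of the matrix had lost shares above the 6.71% of all compared regions. Collagens and other matrix proteins had 14 (2.20%) gained and 54 (8.5%) lost of 635, and matrix proteases and their inhibitors 10 (3.36%) gained and 31 (10.4%) lost of 298. The latter included 8 of 31 at Adam12 and both lost regions at Mmp13, a collagenase. Col1a2 had 1 of each. Of the WNT list 44 (9.28%) of 474 were lost, with 6 each at Prickle2 and Ror1, and 11 gained. Limb mesenchyme factors had 24 (8.30%) lost of 289 and 5 gained, of which 2 were near Prrx1, which marks limb mesenchyme and had 1 lost region too.

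Lists of adhesion and the actin skeleton had gained shares from near to above the overall 2.81%. Neural adhesion and signalling had 24 (4.09%) gained and 39 (6.64%) lost of 587, and actin nucleation and bundling 19 (3.62%) gained and 35 (6.67%) lost of 525; 6 of the 19 were those at Pls3, of which 5 lie in the 4933407K13Rik cluster of X. On the autosomes alone the actin list had 13 gained regions (2.59%), below the overall share. With the 20000 strongest peaks the gained counts were 11 for neural adhesion, 4 for actin and 3 for integrins. All gained regions then fell from 2935 to 1632. Integrins and adhesion adaptors had 17 (3.05%) and 41 (7.35%) of 558, with 6 of the 17 at Bcar3 and 9 lost at Tns3. Markers of cell types other than mesenchyme gave small counts, beside 2.81% gained and 6.71% lost of all compared regions. Epithelial markers had 5 (6.17%) gained and 2 (2.47%) lost of 81, and only the posterior HOX list had a higher gained share. Endothelial markers had 5 (3.85%) and 4 (3.08%) of 130, and smooth muscle and pericyte markers 6 (5%) and 6 (5%) of 120. Skeletal muscle markers had 2 (3.85%) and 3 (5.77%) of 52, and neural markers 3 (2.4%) and 8 (6.4%) of 125. Cdkn2a, a tumour suppressor gene, had neither among 7. In the remaining lists the gained and lost counts were as follows. AP-1 and inflammatory genes had 4 (1.54%) and 21 (8.08%) of 260, and hedgehog and BMP 9 (2.42%) and 29 (7.8%) of 372. TGF-beta had 10 (2.87%) and 21 (6.03%) of 348, and FGF and PDGF 5 (2.09%) and 11 (4.6%) of 239. Cell cycle and tumour suppressors had 5 (2.49%) and 14 (6.97%) of 201. Mesenchymal stem surface and niche had 5 (1.88%) and 21 (7.89%) of 266, and anterior HOX 1 (1.89%) and 2 (3.77%) of 53.

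**Figure D5:**
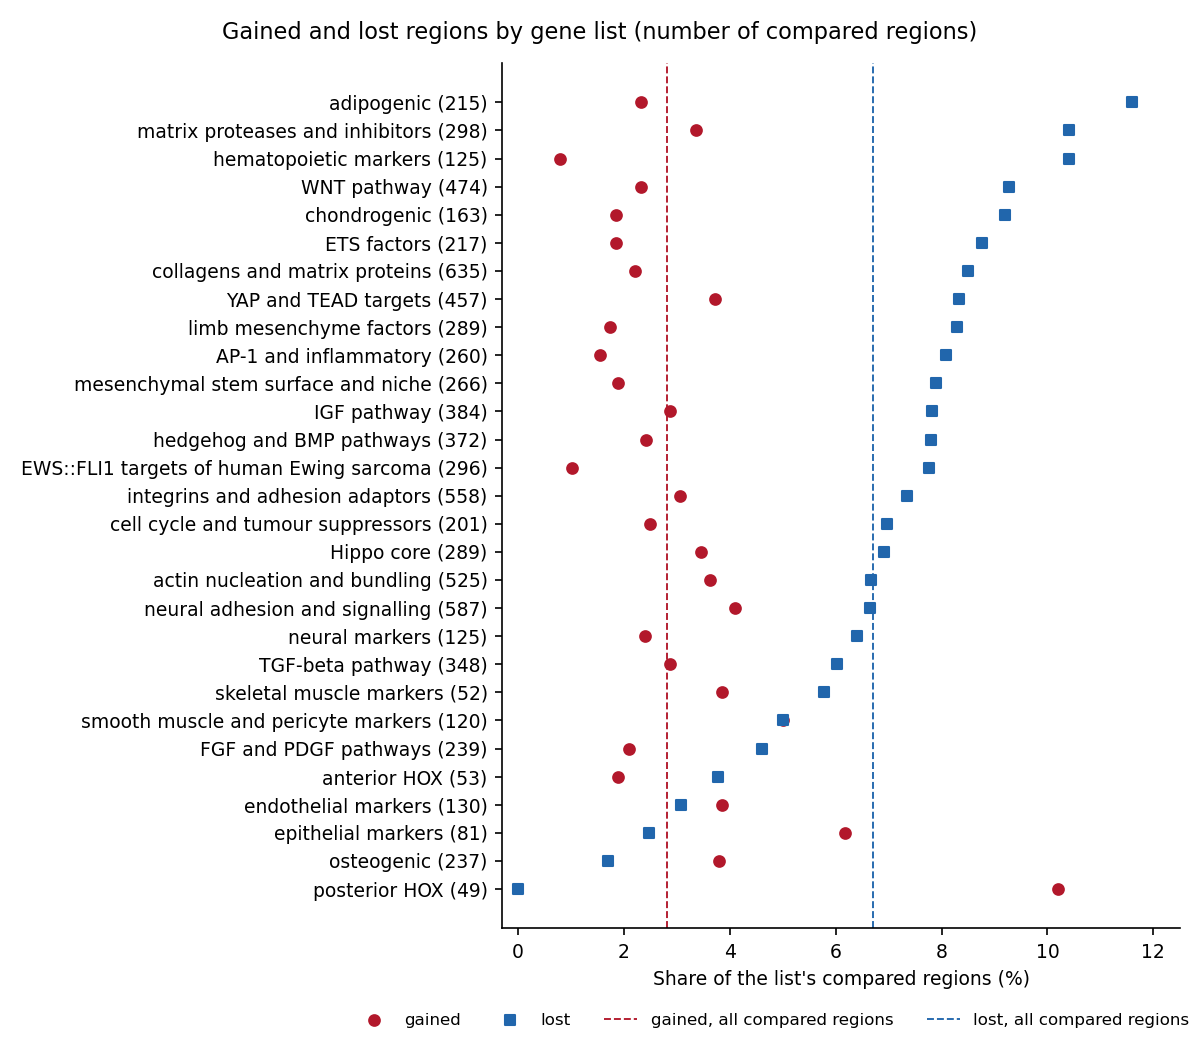
Share of compared regions (x axis, percent) that were gained (circles) or lost (squares) for each of the 29 gene lists (rows, with the number of compared regions); dashed lines give the shares of all compared regions. Posterior HOX has the highest gained share, 10.2%, and the fat cell list the highest lost share, 11.6%.

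Start windows were searched for 6 short motifs, on both strands. They were GGAAGGAA (a pair of the GGAA units that EWS::FLI1 binds in repeats), CCGGAA (core of many ETS sites), TGANTCA (the AP-1 site), GGAATG (TEAD), TGTGGT (RUNX) and CACGTG (the E-box of MYC and related factors). Among the 82 start windows in gained regions GGAAGGAA was in 5 (6.10%), among the 211 in lost regions in 9 (4.27%), and in 2.83% of all 21045 windows. CCGGAA was in 8.54% of the gained and 14.7% of the lost windows, beside 15.1% of all and 25.9% of those in regions called in all 4 libraries. TGANTCA was in 11.0%, 8.06%, 6.17% and 3.89% in the same order. The other motifs were in 7.32% (GGAATG), 13.4% (TGTGGT) and 6.10% (CACGTG) of gained windows and in 9%, 11.4% and 4.74% of lost ones. They were in 11.6%, 12.2% and 6.7% of all windows, so GGAATG was below that share in both directions. The Aqp1 window printed above holds the GGAAGGAA pair and the Fgl2 window the AP-1 site, while the Isl2 and Gstk1 windows hold none of the 6. The counts are small, the windows of some genes overlap, and the distal regions, where most members lie, could not be searched because no genome was used here.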

How the data were processed

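Peak lists of 12 ATAC-seq libraries were analysed, 1 list per library. Per the submitters' processing notes the build was GRCm38.p3 and peaks were called with MACS2; no source used here gives the aligner, filters, any control or read totals. Per the labels' protocols reads were single-end and 50 bp long. Each deposited peak carries its −log10 p-value and −log10 q-value, its fold enrichment (a linear ratio to the local background) and a score of 10 times the −log10 q. The authors' values served only to describe and rank peaks.

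Peaks on chromosomes 1 to 19 and X were merged where they overlapped by at least 1 bp, and a region was called in a library where a peak of it overlapped. Fold and p-value were solved for the genome background, a stand-in for depth. Regions were assigned to the nearest of 21631 protein-coding genes (RefSeq, GRCm38.p6) within 100 kb. Samples were grouped by the genotype label and replicates numbered in accession order. The share of gained minus lost regions called was compared over the 8 held-out libraries by a two-sided exact permutation test; single regions and lists carry no test. Intervals are exact Clopper-Pearson and cover counting error only. Named were, per direction, the 12 genes with most members, the 8 strongest regions, the 8 strongest with the strict pattern, up to 3 genes of each of 29 lists, and 12 single genes of interest, as far as the text has room; Firre, 4933407K13Rik, Xist, the Y genes and the printed promoters were added after their values were seen. Members and lists were chosen with earlier results of these data known. Alternatives were a stricter q, the strongest peaks, summit windows, cover of 50%, regions from the 4 libraries, each library left out and other gene-end distances. The merging, the calls, the rule for gained regions and the gene assignment were checked on simulated data, and the permutation test was not. Python 3.11.15, pandas 2.3.3, numpy 2.4.6 and scipy 1.17.1 were used.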

Additional observations from a re-analysis of the deposited data

Results flagged for a closer look

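Of 27 groups of 4 or 5 libraries checked for 1 value far from the others, 3 held one; chance gives about 1 in 20. EF replicate 2 had 1 peak within Firre, against 16 to 18 in the other 3 EF libraries, a gap of 0.882 of the range. Wt replicate 2 had 17 peaks there, against 0 or 1 in the other Wt libraries, a gap of 0.941. Wt replicate 1 called 0.541% of the regions near endothelial markers, where the other Wt libraries called 35.1% to 40%, a gap of 0.876; this library had the shortest list, with 4.87% of all regions called.

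The Y chromosome was outside the regions compared. The 7 Y genes had 9 peaks in Wt replicate 4 and 5 in Wt_IGF1, above the limit of 3 that a count of 0 allows, and none in any EF-carrying library. Their part in the gained and lost regions was not tested, and the count on autosomes cannot show it.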

How the results depend on the processing

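The direction of the held-out difference was the same under all alternatives run, at 20.4 to 64.3 percentage points when 1 library was left out. Its p was 0.0357 with a stricter q, the strongest peaks, summit windows, cover of 50%, regions of 4 libraries and autosomes only (51.4 to 61.3 points). It missed the threshold without EF replicate 4 (20.4) and without EF replicate 3 (45). Leaving out a held-out library cannot give an exact permutation p under 0.0571 or 0.0952. Within BSF_0654 it was 33.6, within BSF_1013 94.0, and without Wt replicates 1 and 2 together 92.4, and with 1 value per line 57.1; these designs cannot reach the threshold. The last 2 settings and the autosomes were chosen after seeing the data.

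The counts rest on each library: without 1 of the 4, gained regions numbered 3804 to 17863 and lost regions 9707 to 17836, since fewer calls are then demanded. The 20000 strongest peaks gave 1632 and 2465. The gene-end share of gained regions was 4.48% to 15.1% with 1 library left out, 40.0% with the strongest peaks, 11.0% with cover of 50% and 6.84% with regions of 4 libraries; the lost share was 4.86% to 6.70%, 4.99% with the strongest peaks and 6.12% with summit windows. Ends within 500 bp gave 3.41% and 3.90%, and within 2 kb 10.2% and 8.89%. For the gene lists, whose alternatives were added after seeing the data, 217 of 232 counts stayed within 1.5 times with other thresholds, windows, cover or regions, 42 of 232 with a compared library left out, the rest higher, and 14 of 58 with the strongest peaks, 43 lower. The cause of these moves was not tested beyond what each choice changes.

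No paired analysis was possible because the replicate numbers were given in accession order and pair no libraries. Read depth is not known per library, and a missing peak says only that no peak passed the caller's threshold.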
